A study of Sus scrofa with 6 samples.

Results

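*IFITM1*, *IRG6*, *ISG12(A)* and *MX2* are genes of the antiviral programme that cells switch on when they meet interferon. They were followed here in the ear tissue of 6 newborn Sutai piglets, a Chinese line derived from Duroc and Meishan pigs. The members are all transcripts that carry one of these 4 names in the list of differentially expressed genes of the study, of which only the names were used. This gave 6 transcripts out of the 22204 that had a read in any library, with 3 of them named *IFITM1*. The study had chosen the names by comparing the genotypes of these same piglets. The genotype differences of the 4 genes are therefore given as a description. The fit over all transcripts also holds these genes, and their counts of calls are printed for completeness and support nothing.

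The piglets differed by genotype at the ear size locus, with 3 labelled qq and 3 labelled QQ. These were read as the wild-type and the CNV/CNV piglets of the article, where CNV is a copy number variation that reaches into the end of *MSRB3*. The qq piglets were 6161ST, 6165ST and 6407, and the QQ piglets were 6185STQ, 6415 and 6434, each with 1 library of polyadenylated RNA. No treatment or infection is named for any of them, and the sources used here give neither sex nor litter nor health. Between 39.3 and 44.2 M (mega) uniquely mapped reads per library were assigned to transcripts. Cartilage, dermis, hair and pigment cell markers were detected in all 6 libraries, but the cartilage genes *COL2A1*, *ACAN*, *MATN1* and *COMP* summed to 37.5 RPKM in 6161ST and 3.03 RPKM in 6165ST against 249 to 652 RPKM in the other libraries. The marker names come from the same list of differentially expressed genes as the members. The libraries also fell into sets by their titles. The mean chi-square per transcript between libraries was 61.4 to 109 among the 3 titled with the letters ST, 49.6 to 87.3 among the 3 without, and 156 to 408 between the sets. The labels do not say what the letters stand for. The part of these differences in the results was not tested, and in whole tissue a larger number of responding cells cannot be told apart from more RNA per cell.

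Interferons are secreted proteins that bind receptors on neighbouring cells and, through STAT transcription factors, raise a large set of genes that hinder viruses at different steps. In resting skin many of these genes are transcribed at a low level, and they can rise together after infection or another interferon signal. The IFITM proteins sit in membranes and hinder the fusion of virus and cell, while the Mx proteins are dynamin-like GTPases that trap viral components. IRG6 is a synonym of RSAD2 in the RefSeq gene table, an enzyme also known as viperin that makes a nucleotide which stops viral polymerases. ISG12(A) is a small hydrophobic protein of the family of IFI27. In the RefSeq order of genes on Sscrofa 11.1, *IFITM1* lay between *IFITM5* and *IFITM3*, *MX2* next to *MX1*, and *RSAD2* next to *CMPK2*. Positions are not printed, since the build behind the deposited tables is open.

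*ISG12(A)* (ENSSSCT00000002743) had the highest mean level of the members. Its level was 420.4 RPKM (read counts divided by transcript length and library total) in 6161ST, 29.8 in 6165ST and 39.4 in 6407 among the qq piglets. In the QQ piglets it was 40.3 RPKM in 6185STQ, 72.1 in 6415 and 51.3 in 6434. The library of 6161ST thus lay 5.83 times above the next highest (95% counting interval 5.60 to 6.07), and the other 5 libraries spanned a 2.42-fold range. All 3 QQ piglets lay above both remaining qq piglets, although 6185STQ and 6407 differed by less than counting error (intervals 38.2 to 42.5 and 37.4 to 41.4 RPKM).

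The main transcript of *IFITM1* (ENSSSCT00000015915) came next, at 245 RPKM in 6161ST, 46.9 in 6165ST and 30.2 in 6407. The QQ piglets had 47.0 RPKM in 6185STQ, 49.3 in 6415 and 43.7 in 6434. The QQ libraries were close to each other, with a coefficient of variation (SD over mean) of 6.06%, while that of the 3 qq libraries was 111%. A second *IFITM1* transcript (ENSSSCT00000035772) had 48.9, 14.1 and 9.89 RPKM in the qq piglets 6161ST, 6165ST and 6407, and 15.8, 11.2 and 10.3 RPKM in the QQ piglets 6185STQ, 6415 and 6434. It also peaked in 6161ST, although by 3.09 times over the next library (counting interval 2.79 to 3.43), the smallest such ratio of the members.

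The third *IFITM1* transcript (ENSSSCT00000024553) was at the edge of detection. It had 20 reads (1.28 RPKM, counting interval 0.781 to 1.98) in 6161ST, 2 reads each in 6415 and 6434, and 0 in 6165ST, 6407 and 6185STQ, where the floor of 3 counts stands at 0.195, 0.178 and 0.200 RPKM and the upper bound of the counting interval at 0.240, 0.219 and 0.247 RPKM. It did not pass the expression filter, so 5 of the 6 members entered the fit. Its level in 6161ST was 10.4 times that in 6434, with a counting interval of 2.52 to 91.5. In 6415 and in 6434 the 2 reads covered 47.2% of the length and may be the ends of the same fragment. The counting intervals take reads as independent and may therefore be too narrow. The second transcript took 9.17% of all *IFITM1* reads in 6161ST and between 10.3% and 14.6% in the other libraries. The 3 share a name and may share sequence, and since only uniquely mapped reads were counted, their split is uncertain.

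*MX2* (ENSSSCT00000013209) and *IRG6* (ENSSSCT00000009461) were low outside 6161ST. *MX2* had 15.5 RPKM in 6161ST, 2.89 in 6165ST and 2.53 in 6407, against 1.95 in 6185STQ, 3.32 in 6415 and 0.859 in 6434. *IRG6* had 33.4 RPKM in 6161ST, 1.65 in 6165ST and 1.89 in 6407, against 2.36 in 6185STQ, 2.66 in 6415 and 1.003 in 6434. The QQ piglets fell on both sides of the remaining qq piglets for both genes. 6415 was the highest and 6434 the lowest of the 5 libraries. *IRG6* had the largest ratio of 6161ST to the next library among the tested members, 12.6 times (counting interval 10.7 to 14.8), and *MX2* stood at 4.68 times (4.19 to 5.24).

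**Figure D1:**
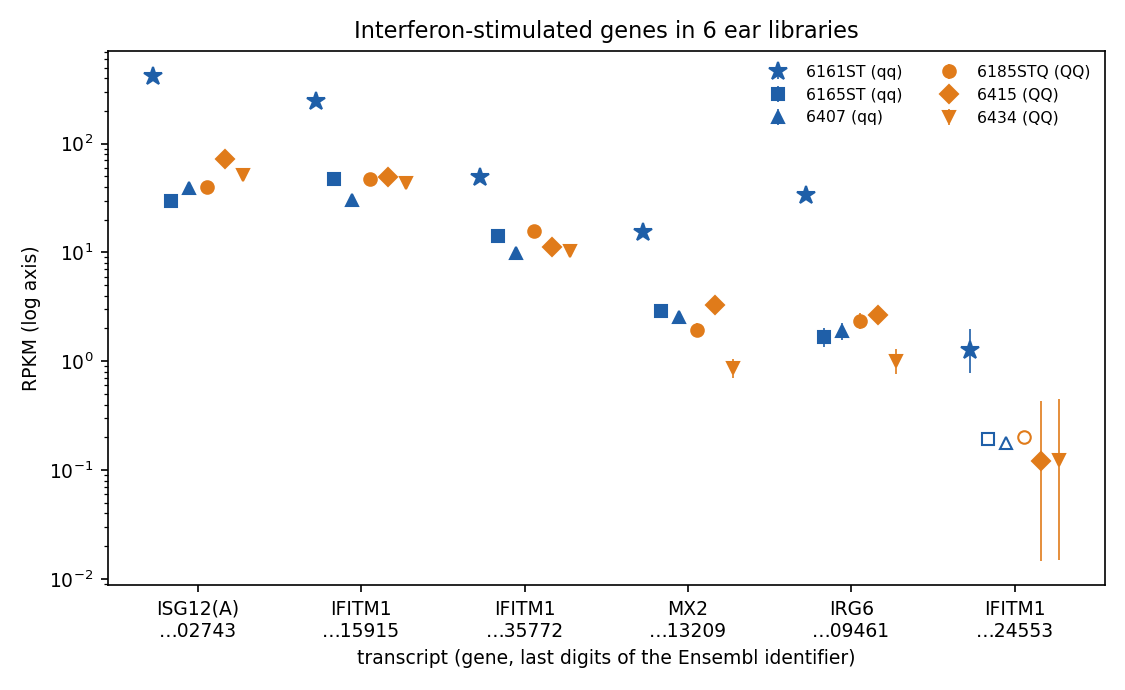
RPKM of the 6 transcripts in each library on a log axis, with qq piglets in blue and QQ piglets in orange, bars for the 95% counting interval, and open symbols at the level of 3 counts where no read was found. The star of 6161ST is the highest symbol in every column, at 420.4 RPKM for ISG12(A) and 33.4 RPKM for IRG6.

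In the 5 libraries other than 6161ST the members kept to 3 tiers. *ISG12(A)* (mean 46.6 ± 16.2 RPKM, SD, n = 5) and the main *IFITM1* transcript (43.4 ± 7.66 RPKM) overlapped and were in this order in 3 of 5 libraries. The second *IFITM1* transcript (12.3 ± 2.57 RPKM) lay below both without overlap. *MX2* (2.31 ± 0.954 RPKM) and *IRG6* (1.91 ± 0.642 RPKM) overlapped at the bottom. *IRG6* exceeded *MX2* in 3 of all 6 libraries, and in 6161ST it did so by 33.4 against 15.5 RPKM.

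Coverage along the transcripts differed between members. The share of the length covered was 97.2% to 99.8% for the main *IFITM1* transcript, 92.5% to 94.4% for *ISG12(A)* and 94.1% to 99.2% for *IRG6*. For *MX2* it was 74.6% in 6434, where 98 reads were counted, and 82.7% to 90.0% in the other libraries. The second *IFITM1* transcript was covered over 47.1% to 71.1% of its length in the 5 libraries and over 85.0% in 6161ST. The files give no depth by position.

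Counted together, the 6 members took 36207 of the 41.0 M reads in 6161ST, or 0.0882% (exact binomial 95% interval 0.0873% to 0.0891%). In the other libraries they took 0.0120% in 6165ST, 0.00991% in 6407, 0.0130% in 6185STQ, 0.0162% in 6415 and 0.0125% in 6434. The qq piglets 6165ST and 6407 were thus at or below the level of the 3 QQ piglets. The intervals cover counting error only and take each read as independent. Among the 5 libraries the median coefficient of variation was 33.6% for the 5 tested members. It was 17.2% for the 13040 tested transcripts with a mean of at least 1 RPKM. The main and second *IFITM1* transcripts were near the latter, at 17.6% and 20.9%. *IRG6*, *ISG12(A)* and *MX2* had 33.6%, 34.7% and 41.3%. For the 11 other interferon-stimulated transcripts described below the median was 28.3%.

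The distance between 6161ST and the other libraries was uncommon among transcripts. Of the 16645 tested, 4786 (28.8%) were highest in 6161ST, 64 (0.384%) were at least 2 times the next library and 17 (0.102%) at least 4 times. All 5 tested members were at least 2 times the next library in 6161ST, and 4 of them at least 4 times. Of the 17 transcripts past 4 times, 4 were members, 9 came from the list of other interferon-stimulated genes described next, and 4 could not be named from the tables used here. With the same 4-fold criterion the other libraries gave 3 transcripts in 6165ST, 1 in 6407, 4 in 6185STQ, 0 in 6415 and 1 in 6434. No tested member could be among these, since all 5 were highest in 6161ST. The names are known only for genes that the study picked on these piglets, so the share of named genes among the 17 is a description.

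**Figure D2:**
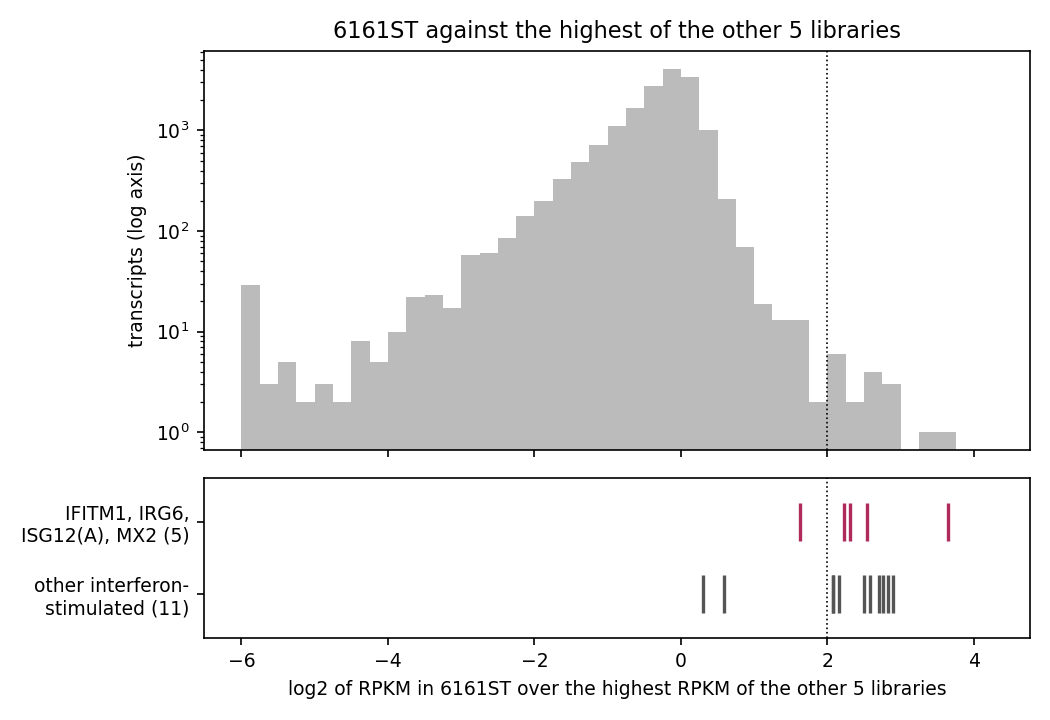
Log2 of the RPKM in 6161ST over the highest RPKM of the other 5 libraries, as a histogram of the 16645 tested transcripts on a log axis (values under -6, or with no read in 6161ST, stand at -6), with ticks for 5 member and 11 other interferon-stimulated transcripts below. The dotted line is at 4 times, and 13 of the 17 transcripts to its right are ticks of the lower panel.

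The other genes of the pathway were taken from a list of 16 names that the same table of the study holds, 18 transcripts in all. Of these, 15 were in the tables and 11 passed the filter. *EIF2AK2*, *IFIH1* and one of the 2 *MX1* transcripts had no row in the tables used here. All 11 tested transcripts were highest in 6161ST, and 9 were at least 4 times the next library. The 4 below the filter were *DHX58*, *OASL*, the other *MX1* transcript and one *DDX58* transcript. The first 3 had their highest value in 6161ST too, at 9.64 times the next library for *MX1* and 13.1 times for *OASL*, both from few reads (184 and 118 in total). This *DDX58* transcript did not, with 0 reads in 6161ST, 4 each in 6165ST and 6185STQ, and 0 in 6407, 6415 and 6434.

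Sensors of viral RNA were represented in the fit by 1 transcript of *DDX58*, the gene of RIG-I. Its level was 17.8 RPKM in 6161ST, 2.46 in 6165ST and 2.28 in 6407, against 2.26 in 6185STQ, 2.97 in 6415 and 1.80 in 6434. It lay 6.0 times above the next library in 6161ST, and its groups overlapped. *DHX58*, also listed as a sensor, was below 0.3 RPKM in all libraries.

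The *ISG15* system attaches a ubiquitin-like protein to other proteins, with *HERC5* as the ligase and *USP18* as the protease that removes it. *ISG15* had 239.9 RPKM in 6161ST, 15.3 in 6165ST and 15.5 in 6407, and 35.5, 25.6 and 15.3 RPKM in 6185STQ, 6415 and 6434. *USP18* had 14.5, 2.76 and 2.07 RPKM in the qq piglets and 3.27, 2.61 and 2.12 RPKM in the QQ piglets, in the same order. *HERC5* had 9.73 RPKM in 6161ST and 0.741 to 1.499 RPKM elsewhere. All 3 were between 4.45 and 6.76 times the next library in 6161ST.

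Effectors and other induced genes made up the remaining 7 tested transcripts. *IFIT3*, which with *IFIT1* binds foreign RNA, had 31.7 RPKM in 6161ST and 4.44 to 5.58 RPKM elsewhere, and *IFIT1* had 11.11 RPKM against 0.748 to 1.56 RPKM. *PARP14*, an ADP-ribosyltransferase gene, had 6.70 RPKM against 0.751 to 1.59 RPKM. *XAF1* and *DDX60* were 4.20 and 7.44 times the next library in 6161ST. *IFI27L2*, a relative of *ISG12(A)*, and *SLFN11* stood apart from the rest. *IFI27L2* had 35.8 RPKM in 6161ST against 17.4 to 29.1 RPKM in the other libraries, a ratio of 1.23, while *ISG12(A)* in the same library had a ratio of 5.83. *SLFN11* had a ratio of 1.499 and was the only transcript of the 16 tested, members included, whose groups did not overlap. Over all transcripts tested, 12.1% had groups without overlap and lower values in QQ.

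**Figure D3:**
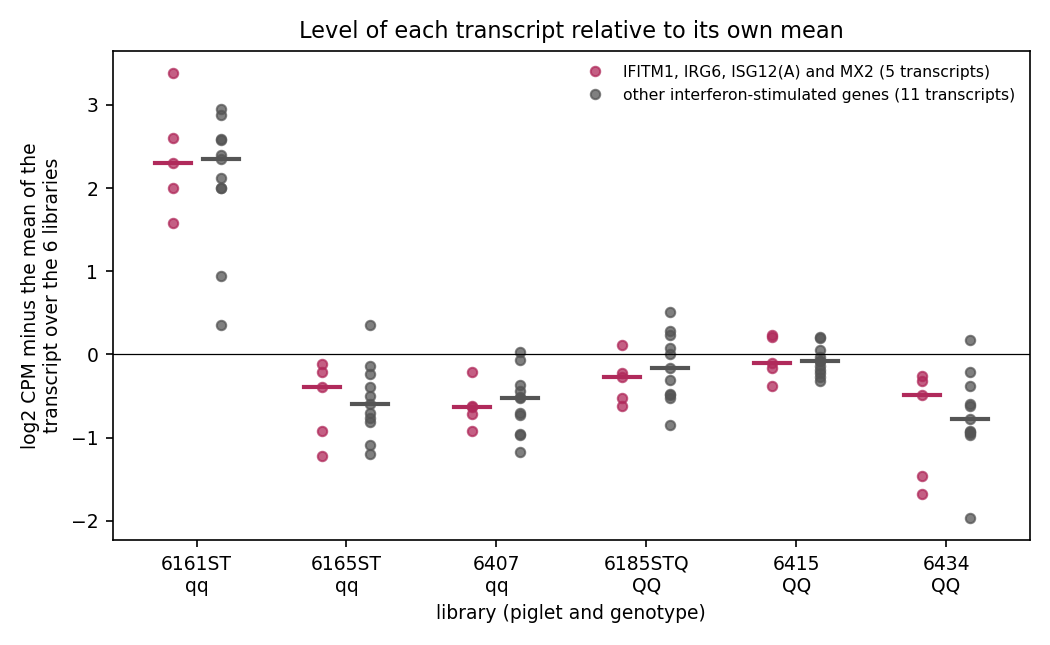
Log2 CPM (counts scaled to library size) of each transcript minus its mean over the 6 libraries, for the 5 tested member transcripts and the 11 other tested transcripts of the list, with a bar at the median of each set. The medians are 2.30 and 2.35 in 6161ST and lie between -0.78 and -0.08 in all other libraries.

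Markers of other cells that ear tissue can hold were read beside these values. All marker names come from the study's list of differentially expressed genes, chosen on these same piglets. Differences in their sums are therefore a description, and no leukocyte gene from outside that list was read. The 5 leukocyte marker genes were *SPI1*, *CD302*, *CCL23*, *DEF6* and *BST1*. They summed to 2.09 RPKM in 6161ST, of which *CCL23* gave 1.58 RPKM, and to between 1.47 and 3.89 RPKM in the other libraries. In 6161ST *CCL23* had 50 reads, *SPI1* 26 and *BST1* 4, while *CD302* and *DEF6* were at 0. These 2 genes were near the floor throughout, with 30 and 6 reads over all libraries, and *DEF6* was not at 0 in 6161ST alone. *ALAS2*, the erythroid gene that was in the tables, had 0.175 RPKM in 6161ST and 0.178 to 1.15 RPKM elsewhere. The 3 dermis markers summed to 1032 RPKM in 6161ST, the lowest of the 6, 1216 in 6165ST and 1706.5 in 6185STQ. In the libraries titled without ST they summed to between 5935 and 9432 RPKM. The 3 hair and keratinocyte markers summed to 1299 RPKM in 6161ST, 2476 in 6165ST and 446 to 792 RPKM in the other libraries. The 4 melanocyte markers summed to 212 RPKM in 6161ST, 252 in 6165ST and 68.2 to 141 RPKM in the others, and the 3 markers of mesothelium or simple epithelium to 92.2, 106 and 34.7 to 48.8 RPKM in the same order. The sums of the hair, melanocyte, epithelium and cartilage lists thus separated 6161ST and 6165ST from the other 4 libraries. In the epithelium list *UPK3B* did not follow this split. It had 0.181 RPKM in 6161ST, 2.42 in 6165ST and 1.04 to 12.2 RPKM in the others. The part of the marker differences in the levels of the members was not tested.

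The transcripts most like the members over the 6 libraries were sought by the root mean square distance of centred log2 CPM to the mean profile of the 5 tested members. That profile was 2.37 in 6161ST, -0.57 in 6165ST, -0.62 in 6407, -0.31 in 6185STQ, -0.04 in 6415 and -0.84 in 6434. The closest of 16640 transcripts was *DDX58*, at a distance of 0.0908 where the median transcript was at 1.12. *HERC5* had rank 2 (0.161), *IFIT3* rank 4 (0.237), *PARP14* rank 5 (0.252), *USP18* rank 6 (0.263) and *IFIT1* rank 7 (0.301). *ISG15* and *XAF1* ranked 12 and 17. Among the closest 50, 9 were of the 11 tested transcripts of the list, 1 had another name and 40 had none. All 50 were highest in 6161ST. When the distance was taken over the 5 other libraries alone, 1 transcript of the list, *DDX58* at rank 23, was among the closest 50. *HERC5* then ranked 106, *PARP14* 672, *USP18* 978 and *IFIT3* 1168. *IFIT1*, *ISG15* and *XAF1* ranked 5025, 8633 and 12686. The likeness over 6 libraries thus rested largely on 6161ST.

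The genotype difference was negative with all libraries and mostly positive without 6161ST. Fitted by edgeR as log2 of QQ over qq, it was -2.47 for *IRG6* (standard error 1.10), -1.63 for *MX2* (0.74), -1.43 for *ISG12(A)* (0.90), -1.05 for the main *IFITM1* transcript (0.67) and -0.82 for the second (0.53). The median of the 5 was -1.43, where the median over all transcripts tested was -0.0012 and 50.2% of them were negative. Without 6161ST the values were 0.28 for *IRG6* (standard error 0.43), -0.30 for *MX2* (0.50), 0.76 for *ISG12(A)* (0.28), 0.40 for the main *IFITM1* transcript (0.19) and 0.17 for the second (0.26). The median was then 0.28, and 51.4% of all transcripts were above 0. With a second term for the letters ST in the title the median was -0.81. Within the libraries titled ST, the difference of mean log2 CPM (QQ minus qq, 1 piglet against 2) had a median of -1.32 over the 5 members, and within the others (2 against 1) it was 0.18. The first of these sets holds 6161ST.

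At an adjusted p under 0.05 from edgeR, 0 of the 5 tested members and 1 of the 16645 transcripts (0.00601%) were called, and 0 of the 5 members had an unadjusted p under 0.05, against 5.35% of the transcripts. The count of members at an unadjusted p under 0.05 was 1 of 5 without 6161ST (2.39% of all transcripts), 3 without 6165ST (3.17%) and 4 without 6407 (11.9%). DESeq2 called 0 members and 0.179% of the transcripts to which it gave an adjusted p. It gave no p for *IRG6* and *ISG12(A)*, nor for *HERC5* and *DDX60* of the list, so that 4 of the 11 transcripts left without a p were members or of the list. The groups overlapped for the 5 tested members, while 14.2% of the tested transcripts had groups without overlap. Without 6161ST, the 3 QQ piglets were above both remaining qq piglets in 1 of the 5 tested members, *ISG12(A)*, as in 2.98% of all transcripts.

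The 11 other interferon-stimulated transcripts showed the same dependence. Their median log2 fold change was -1.22 with all 6 libraries and 0.26 without 6161ST. All 11 were negative with all libraries, and 10 were positive without 6161ST, the exception being *SLFN11* (-0.91 with a standard error of 0.28, and -0.62 with 0.25). *ISG15* went from -1.67 (standard error 0.99) to 0.83 (0.34), and *XAF1* from -1.04 (0.94) to 1.17 (0.52). At an adjusted p under 0.05 from edgeR, 0 were higher and 0 lower in QQ in either fit, and at an unadjusted p under 0.05 there was 1 of 11 with all libraries (5.35% of all transcripts) and 2 of 11 without 6161ST (2.39%). That count was 9 of 12 without 6165ST (3.17%) and 10 of 12 without 6407 (11.9%), both with 6161ST in the fit. The study chose this list on the same piglets, so neither its direction nor its counts are independent evidence.

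**Figure D4:**
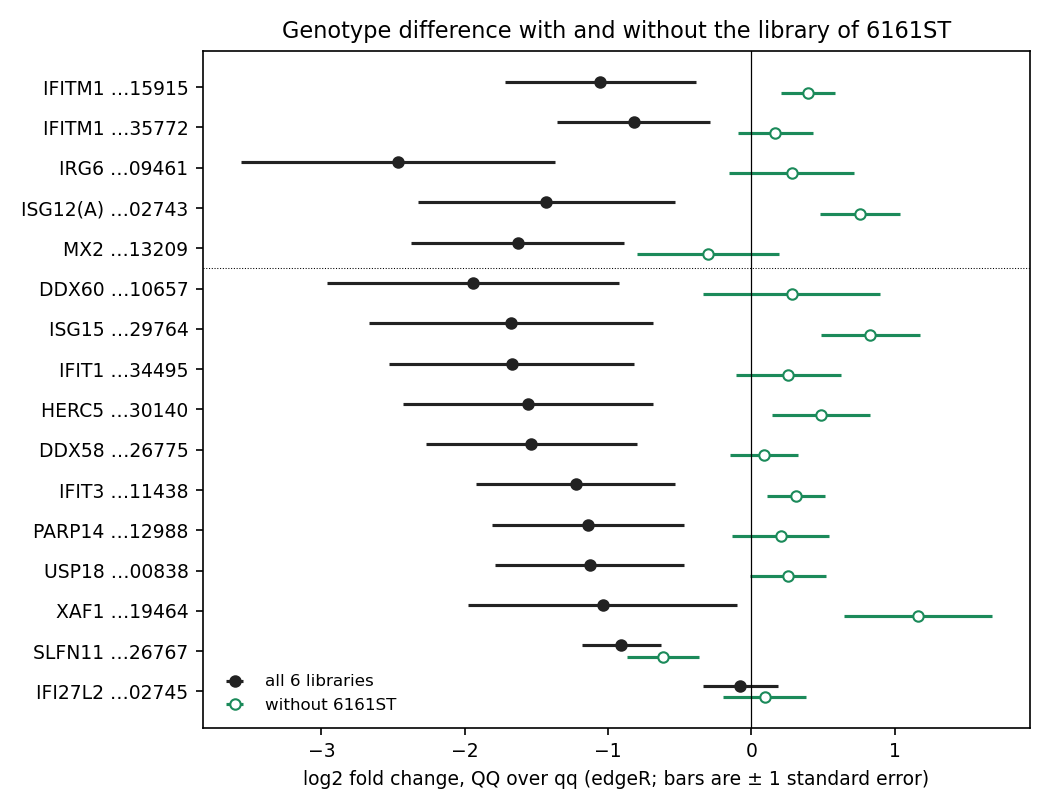
Log2 fold change of QQ over qq with its standard error from edgeR, for the 5 tested members above the dotted line and the 11 other tested transcripts of the list below it. Filled symbols with all 6 libraries are left of 0, and open symbols without 6161ST are right of 0 except for MX2 (-0.30) and SLFN11 (-0.62).

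Within the 5 remaining libraries, no order of the piglets held for all members. The QQ piglet 6415 was the highest of the 5 for 4 of 5 tested members, against 15.9% of all transcripts, and 6185STQ for the second *IFITM1* transcript. The QQ piglet 6434 was the lowest for *IRG6* and *MX2*, and the qq piglet 6407 for both *IFITM1* transcripts. *MX2* differed by 3.86 times between 6415 and 6434, piglets of the same genotype, with counting intervals of 3.00 to 3.66 and 0.697 to 1.05 RPKM. Leaving out any piglet other than 6161ST left the median log2 fold change of the members between -1.93 and -1.25.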

How the data were processed

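Polyadenylated RNA was sequenced as paired ends on an Illumina HiSeq platform, 1 library for each of 3 qq and 3 QQ piglets. The authors aligned the reads with TopHat (the article names Sscrofa 11.1, the submitters' processing notes Bowtie2, TopHat, Cuffdiff and Sscrofa10.2). They deposited, for each Ensembl transcript, the count of uniquely mapped reads, the percent of its length covered, and RPKM. The deposited RPKM equalled count over length and library total for 100% of values (relative tolerance 0.001). The sources used here name neither the counting program nor a strand setting, so antisense and overlapping genes cannot be told apart. Unlisted transcripts were set to 0.

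The 16645 transcripts passing filterByExpr (BCV 0.263) were fitted in R 4.3.3 with edgeR 4.0.16 (TMM, quasi-likelihood, genotype as the only term, Benjamini-Hochberg adjustment). Standard errors came from the F value, log2 CPM used a prior count of 2, and intervals were exact Poisson or binomial. The intervals took each read as independent. Both reads of a pair may have been counted, in which case all these intervals are too narrow. The study itself had used Cuffdiff, which needs the reads. Alternatives were DESeq2 1.42.0, limma 3.58.1 (voom, and log2 of RPKM + 1), upper quartile scaling, 2 other filters, a term for the letters ST in the title, and leaving out each library. The fit was tested on simulated data in which each change was shared by all libraries of a group. These data held no single outlying library and no split by title, so the test does not bear on either. The replicates are separate piglets, and no 2 libraries agreed within sampling noise (mean chi-square per transcript 49.6 to 408).

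Members and lists were chosen with earlier results of these data known. Named were all members, up to 4 genes for each role of the list by mean RPKM, and the closest 8 named transcripts. *OASL*, *MX1*, *DDX60* and *SLFN11* were named after their values were seen. Names came from 280 identifiers of the study's list. The gene tables at hand matched 0 transcript identifiers. No sequence is printed.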

Additional observations from a re-analysis of the deposited data

How the results depend on the processing

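Leaving out 6161ST turned the median log2 fold change of the members from -1.43 to 0.28 and that of the other interferon-stimulated transcripts from -1.22 to 0.26, and leaving out each of the 6 piglets gave ranges of -1.93 to 0.28 and -1.80 to 0.26. In all other fits both medians stayed negative. Within the libraries titled ST, an alternative chosen after seeing the data, they were -1.32 and -0.86, and within those without ST 0.18 and 0.24. Of 64 values of single members under an alternative, 60 were negative, and the 4 positive ones were those without 6161ST. The members' median was -0.51 with voom and -0.61 on log2 of RPKM + 1, both fits on a log scale, and -0.81 in the edgeR count fit with the term for the letters ST. The number of transcripts called at an adjusted p under 0.05, 1 in edgeR, was 28 in DESeq2, 3 without a filter, 0 with a mean of at least 5 RPKM, 0 with voom, 2 on log2 of RPKM + 1, 2 with the term for ST, and 0 to 6 when a piglet was left out. The cause was not tested. The median ratio of 6161ST to the next library over the 5 members was 4.97 in RPKM, 4.47 in CPM with TMM factors and 4.37 with upper quartile factors. Among the 50 closest transcripts, 9 of the list became 1 without 6161ST. No paired analysis was possible because the piglets are separate animals and the replicate numbers were given in accession order, so that they pair no qq piglet with a QQ piglet. Depth limits the third *IFITM1* transcript, *MX1*, *OASL* and *DHX58*.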
